A study of Mus musculus with 4 samples.

Results

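The replication-dependent histone genes were followed in a map of PPARγ binding in mouse alveolar macrophages (AMs), the macrophages of the airspace. They are the genes whose older symbols begin with Hist1h, Hist2h, Hist3h or Hist4h, and 67 of the 20923 protein-coding genes on chromosomes 1 to 19 and X were found by a newer or an older symbol. Overlapping peaks of the libraries (by at least 1 bp) were joined, and the 20233 joined intervals that held peaks from both are called consensus regions. The gene of a region is the one whose transcription start site (TSS), in curated RefSeq transcripts of mm10, lies nearest to its centre. On this rule 48 of the 67 histone genes were nearest to at least 1 region, and they held 88 of the regions.

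AMs of wild-type C57BL/6J mice aged 9 wk were obtained by bronchoalveolar lavage and sorted in aliquots of 200000 cells per the design text, while the methods give 100000 to 200000. Chromatin was precipitated with an anti-PPARγ antibody from Diagenode and tagged on the beads by a transposase (HT-ChIPmentation). The 2 ChIP libraries (library 1 and library 2, after the replicate numbers in the titles) form 1 group with no treatment contrast, and the authors called peaks against input controls. No label says whether they came from separate animals. The question addressed is where PPARγ peaks lie. Library 1 has 83787 peaks and library 2 has 28535, and the lists carry no read counts, so depth is unknown. All 10 AM markers examined, from Pparg and Siglecf to Marco and Fabp4, were nearest to a region, against 1 of 4 lymphocyte, 1 of 4 epithelial, 1 of 3 endothelial and 1 of 3 neutrophil markers. The share over all protein-coding genes was 31.6%, and the counts for the other cell types lie near it. Within 1 kb of a start, 9 of the 10 AM markers had a region, all but Marco. The epithelial marker Scgb1a1 and the neutrophil marker S100a8 had one as well. A peak is not a measure of expression, and RNA was not measured in this series.

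Histones are the proteins around which DNA is wound. H2A, H2B, H3 and H4 form the core of the nucleosome, and H1 binds the linker DNA between nucleosomes. The replication-dependent genes are short, mostly lack introns, give mRNAs that end in a stem-loop rather than a poly(A) tail, and are expressed mainly in S phase. In the transcripts used here 65 of the 67 genes have 1 coding exon, and H2bc23 and H4bc24 have 2. They sit in clusters, in which H2A and H2B genes are often transcribed away from each other from 1 short shared promoter. PPARγ is a nuclear receptor activated by fatty acids. It pairs with RXR on a direct repeat with 1 base between its units, called DR1, and AMs depend on it for their identity and for surfactant lipid handling.

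The shared H2A and H2B promoters are shown because some had strong regions and others none. The spacer between the starts of H2ac6 and H2bc4 lay under the best-ranked of these regions. H2ac11–H2bc11 and H2ac12–H2bc12 are neighbours, of which the former had a consensus region and the latter did not. H2bc1–H2ac1, which encode testis histones, had no peak in either library. The spacer of H2bc23–H2ac23 is contained in that of H2ac24–H4bc24 in opposite orientation. Each spacer is given on the plus strand of mm10 from the base after one TSS to the base before the other, at chr13:23683960-23684198, chr13:22042950-22043197, chr13:22035644-22035820, chr13:23934157-23934436, chr13:21810200-21810366 and chr13:21833476-21833742, in the order listed. Capitals mark CCAAT boxes (CCAAT), TATA boxes (TATAAA) and octamers (ATTTGCAT) on either strand.
H2ac6–H2bc4: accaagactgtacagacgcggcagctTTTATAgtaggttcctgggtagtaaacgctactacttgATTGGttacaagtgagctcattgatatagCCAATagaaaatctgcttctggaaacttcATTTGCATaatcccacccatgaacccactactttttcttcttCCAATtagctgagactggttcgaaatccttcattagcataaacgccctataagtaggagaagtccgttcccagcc
H2ac11–H2bc11: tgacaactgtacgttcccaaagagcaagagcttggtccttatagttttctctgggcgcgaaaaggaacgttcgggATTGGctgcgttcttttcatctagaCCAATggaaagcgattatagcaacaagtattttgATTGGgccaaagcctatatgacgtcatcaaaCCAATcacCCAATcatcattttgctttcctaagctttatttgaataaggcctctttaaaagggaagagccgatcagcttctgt
H2ac12–H2bc12: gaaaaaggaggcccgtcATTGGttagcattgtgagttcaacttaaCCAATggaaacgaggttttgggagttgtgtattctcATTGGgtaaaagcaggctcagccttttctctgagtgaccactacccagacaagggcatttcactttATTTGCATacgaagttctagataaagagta
H2bc1–H2ac1: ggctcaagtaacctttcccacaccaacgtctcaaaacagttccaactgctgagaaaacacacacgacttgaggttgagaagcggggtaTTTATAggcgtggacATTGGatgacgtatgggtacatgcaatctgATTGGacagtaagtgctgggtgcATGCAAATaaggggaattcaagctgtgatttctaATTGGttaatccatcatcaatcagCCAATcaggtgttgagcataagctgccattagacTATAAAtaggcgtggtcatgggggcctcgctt
H2bc23–H2ac23: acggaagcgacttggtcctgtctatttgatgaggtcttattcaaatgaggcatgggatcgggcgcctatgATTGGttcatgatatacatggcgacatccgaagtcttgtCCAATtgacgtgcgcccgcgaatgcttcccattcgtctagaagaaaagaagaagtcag
H2ac24–H4bc24: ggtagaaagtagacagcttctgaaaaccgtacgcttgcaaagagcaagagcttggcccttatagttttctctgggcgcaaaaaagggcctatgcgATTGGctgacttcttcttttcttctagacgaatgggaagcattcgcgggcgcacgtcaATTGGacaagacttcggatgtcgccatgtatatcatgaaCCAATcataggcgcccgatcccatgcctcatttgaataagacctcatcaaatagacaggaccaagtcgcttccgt

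PPARγ regions were frequent at the histone genes. A consensus region lay within 1 kb of a TSS of 53 of 67 histone genes (79.1%, 95% Wilson interval 67.9% to 87.1%), whereas 23.2% of all protein-coding genes had one. By the nearest-TSS rule the share was 71.6% (59.9% to 81.0%), against 31.6% of all genes. A region spanned a TSS itself in 43 of 67 (64.2%), against 15.6% of all genes. These intervals cover counting error over genes only, and the genes are not independent, since the 53 genes shared 36 best-ranked regions and 87 of the 88 regions had another histone gene as the second nearest gene.

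Each library alone gave a similar share. A library 1 peak lay within 1 kb of a TSS of 59 of the 67 genes (88.1%, background 44.2%) and a library 2 peak of 52 (77.6%, background 24.2%). Peaks of both libraries were there in 51 genes, of library 1 only in 8, of library 2 only in H3c14, and of neither in 7. Of the 120 library 2 peaks nearest to a histone gene, 106 (88.3%) overlapped a library 1 peak, and of the 229 library 1 peaks 95 (41.5%) overlapped library 2. Over the whole lists these shares were 82.9% and 26.9%. The count of 88 regions depends on the overlap rule, since it was 48 when summits had to lie at most 100 bp apart, 51 with a reciprocal overlap of 50%, 58 among peaks with a fold enrichment of at least 5, and 229 for library 1 alone.

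**Figure D1:**
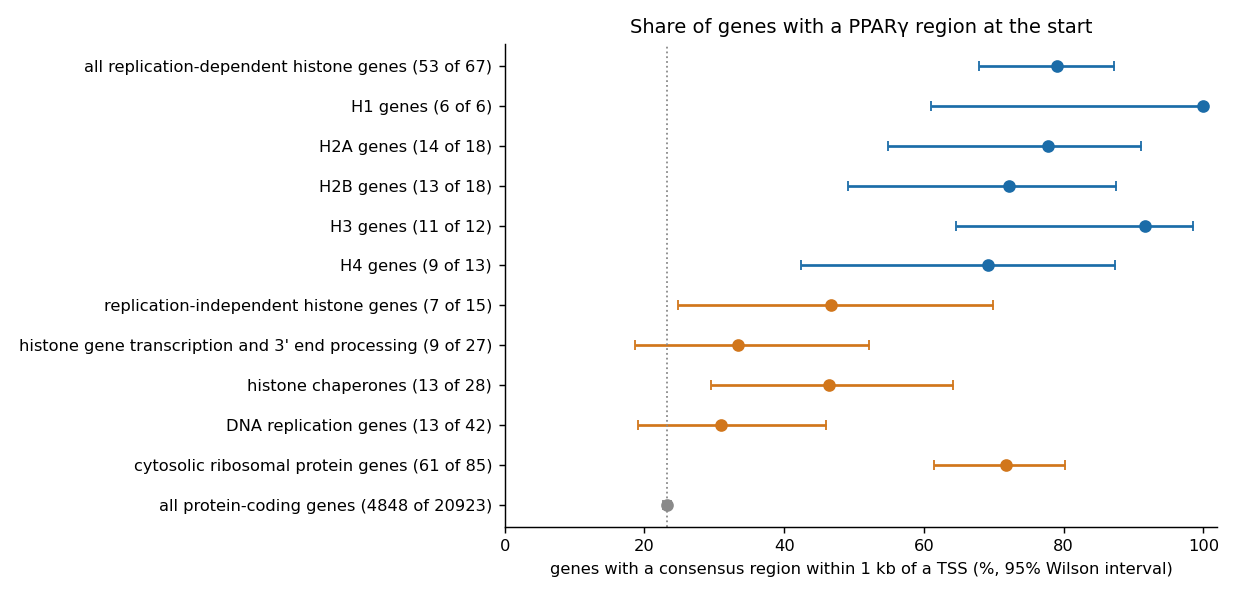
Share of genes with a consensus region within 1 kb of a TSS (points, in percent) with the 95% Wilson interval (bars), for histone genes and classes (blue), 5 other gene lists (orange) and all protein-coding genes (grey, dotted line). All 5 histone classes lie between 69.2% and 100%, above the 23.2% of all genes.

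The regions at histone genes also had a higher median fold enrichment than all regions, by more at the starts than over all 88. Fold enrichment here is the ratio that the authors' peak caller gives for the ChIP against the input, and it is compared within a library only. The median over the 88 regions was 8.74 in library 1, with a range of 2.82 to 21.9, against 6.81 over all consensus regions. In library 2 it was 6.19, with a range of 2.86 to 14.6, against 5.35. For the best-ranked region at each of the 53 starts the median was 14.2 and 8.70, whereas over the 4848 genes with a region at the start it was 7.998 and 5.63. Regions that histone genes share count more than once in the former. Counted once each, the histone regions centred within 1 kb of the TSS had medians of 11.6 and 7.03, against 7.11 and 5.35 over all such regions.

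Regions were ranked by the lower of their percentiles in both libraries. Of the 88, 24 (27.3%) lay in the top 10% of all regions and 31 (35.2%) in the lower 50%, so strong and weak regions occurred side by side. Fold enrichment in both libraries was correlated across the 88 regions (Spearman's rho 0.786, Pearson's r of log2 values 0.784), against a rho of 0.551 over all 20233 regions. The regions share their libraries and neighbouring sequence, and the values are coarse, since 98.995% of library 1 peaks and 97.6% of library 2 peaks have a fold enrichment that another peak of the list also has.

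**Figure D2:**
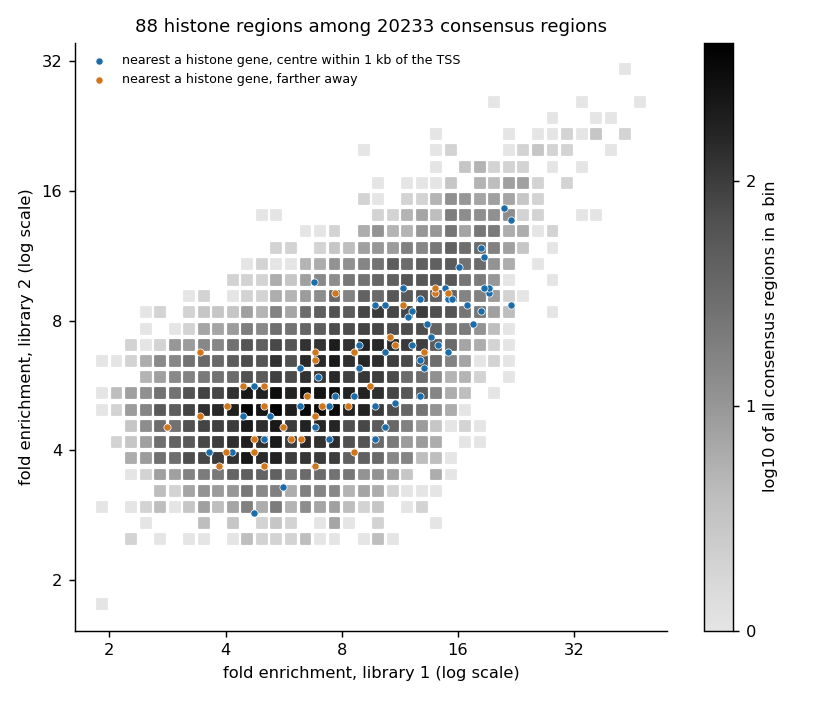
Fold enrichment in library 1 against library 2, both on log scales, for the 88 regions nearest to a histone gene (blue, centre within 1 kb of the TSS; orange, farther) over all 20233 consensus regions (grey bins, darker for more regions). The histone regions reach 21.9 in library 1 and 14.6 in library 2, and 53 of the 88 are drawn in blue.

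The distance of histone regions from starts is given as a description, since they were assigned by the nearest TSS and the genes are densely packed, which keeps the distances short. The centre lay within 1 kb of the TSS in 53 of 88 (60.2%, 49.8% to 69.8%), against 23.9% of all regions, and more than 3 kb away in 11 (12.5%, 7.13% to 21.01%), against 63.5%. The strongest of the 11 lay 12408 bp upstream of H4c8, at chr13:23516938-23520334, with a fold enrichment of 13.9 in library 1 and 9.26 in library 2. H4c8 had the most regions of any histone gene, 5, followed by H2bc13 with 4. Median width was 704 bp, against 626 bp over all regions.

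The genes form 7 blocks separated by more than 100 kb, and their shares differed. Cluster 1, on chromosome 13, has blocks 1 to 4. In block 3, which spans chr13:23531044-23764412, all 29 histone genes had a region within 1 kb of a start. Block 1, chr13:21715711-21837530, had one at 11 of 18 genes, block 2, chr13:22035122-22043658, at 3 of 5, and block 4, chr13:23933725-23934913, at neither of its 2 genes. Cluster 2, on chromosome 3 at chr3:96219885-96270192, had regions at 9 of 10 genes. Cluster 3, on chromosome 11, had one at H2aw but not at H2bu2, and cluster 4 on chromosome 6 consists of H4f16 alone, which had none. Block 3 held 2.06 regions per 10 kb and the chromosome 3 cluster 2.58, against 0.0768 over the genome, and regions covered 20.3% and 19.5% of their length, against 0.677%. These densities are not corrected for gene density, and block ends were drawn at histone genes. Block 3 packs its 29 histone genes into 233 kb, whereas the genome holds 20923 protein-coding genes in 2633777 kb.

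Of 48 other protein-coding genes between the blocks on chromosome 13, 36 are vomeronasal receptors, the pheromone receptors of the nose, and none of these was nearest to a region. Of the other 12, 4 were nearest to a region (background 31.6%), and Abt1 had 8 regions, Btn1a1 6, Zfp184 4 and Prss16 3. The gaps between successive blocks held 0.405, 0.134 and 0 regions per 10 kb, against 0.0768 over the genome. Hfe, which encodes a regulator of iron uptake, lies inside block 3 and had 2 regions, with one at its start.

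**Figure D3:**
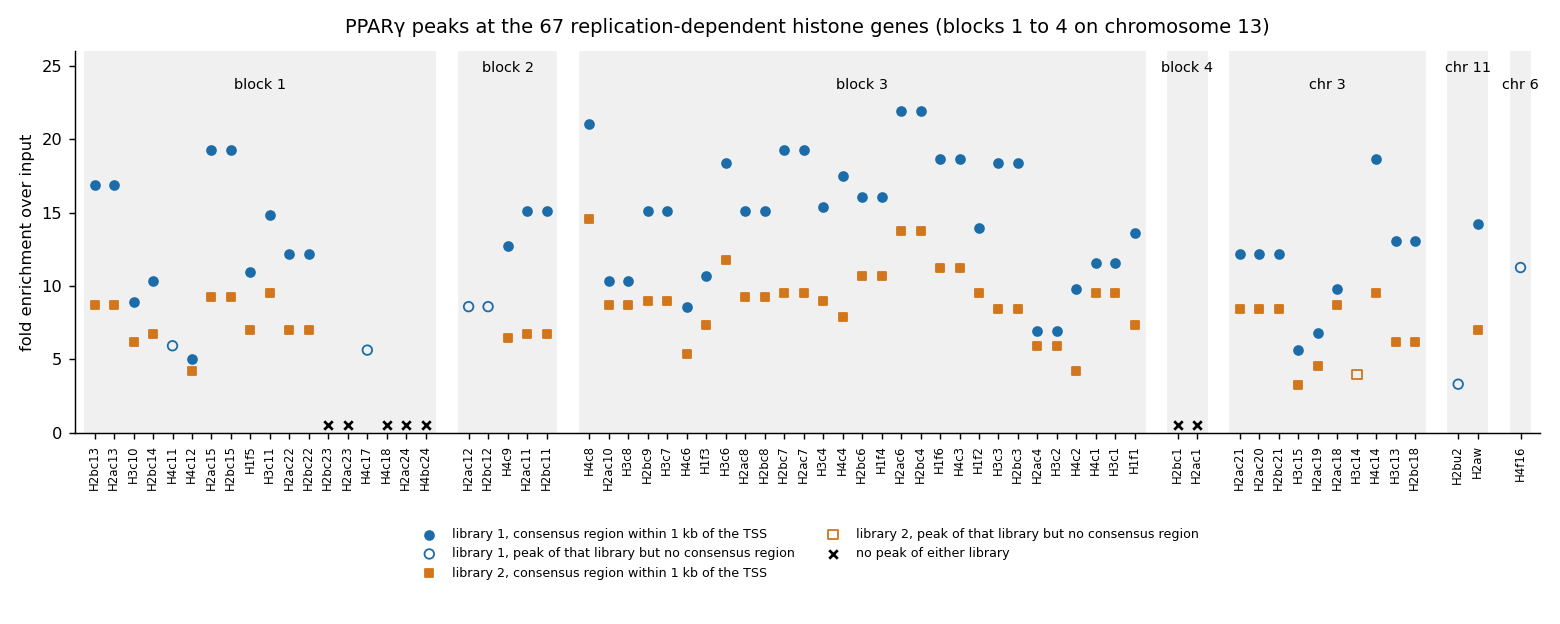
Fold enrichment over input at each of the 67 histone genes in chromosomal order, by block, for library 1 (blue circles) and library 2 (orange squares). Filled symbols are the best-ranked consensus region within 1 kb of a TSS (53 genes), open symbols a peak of 1 library without a consensus region, and crosses genes with no peak. Block 3 is filled throughout, and the crosses lie in blocks 1 and 4. H2bc6 is drawn with the region at its other annotated start, beside H1f4.

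All 6 genes of linker histone H1 had a region within 1 kb of the start, but placed unlike those of the core histones. Only the region of H1f2 spanned the start, and it was the widest of the 88, at 3890 bp, with a fold enrichment of 13.9 in library 1 and 9.54 in library 2 and with summits 1391 and 1296 bp downstream of the start. For H1f4 the region ran from 502 to 2438 bp downstream of the start (16.1 and 10.7 in libraries 1 and 2), for H1f3 from 562 to 2162 bp (10.7 and 7.31), and for H1f5 from 703 to 2011 bp (10.96 and 7.03). The region of H1f4 is centred 6 bp from another annotated start of H2bc6, so the 2 genes cannot be told apart there. By the nearest-TSS rule it belongs to H2bc6, and 3 of the 6 H1 genes were nearest to a region. H1f6, which encodes the testis linker histone, has its region from 661 bp downstream (18.7 and 11.2). It is the same region that covers the start of H4c3, so the 2 genes cannot be told apart there. For H1f1 the region ended 436 bp upstream of the start (13.6 and 7.31) and spanned the start of H3c1, whose best-ranked region is another (11.6 and 9.54).

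The 300 bp upstream of the 6 H1 starts lay under library 1 peaks for a median of 49.8% and under library 2 peaks for a median of 0%, although every 100-base word there is unique in the genome. Of the 6, 5 hold an H1 box (AAACACA), an element known from H1 promoters, in the 250 bases before the start, against 5.36% of all promoters, and all 6 hold a CCAAT box. H1f2 and H1f4 are shown because both hold an H1 box and a CCAAT box while only the former lay under peaks of both libraries there. Of this pair H1f4 alone holds the exact word TATAAA. H1f2 reads tatatata between its CCAAT box and its start, and variants of the TATA box were not searched. The 150 bases before the start, on the coding strand, are at chr13:23738657-23738806 (plus strand) and chr13:23622559-23622708 (minus strand), with H1 box, CCAAT box and TATA box in capitals.
H1f2: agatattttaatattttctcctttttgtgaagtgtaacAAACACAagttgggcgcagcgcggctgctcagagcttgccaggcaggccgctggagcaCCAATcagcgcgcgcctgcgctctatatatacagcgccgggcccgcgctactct
H1f4: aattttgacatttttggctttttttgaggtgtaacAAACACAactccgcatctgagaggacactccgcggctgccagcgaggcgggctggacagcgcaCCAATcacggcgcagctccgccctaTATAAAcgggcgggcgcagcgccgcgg

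Of the H2A genes 14 of 18 and of the H2B genes 13 of 18 had a region within 1 kb of the start. The strongest covered H2ac6 and H2bc4, with a fold enrichment of 21.9 in library 1 and 13.7 in library 2 (rank 106 of 20233). In all, 12 pairs of H2A and H2B genes are divergent, with spacers of 163 to 280 bp and a median of 209.5 bp. A consensus region lay over the spacer in 8 of the 12 and covered the whole of it each time. Its highest peak had the summit inside the spacer in 7 of 8 pairs in library 1 and in 7 of 8 in library 2, so the peaks were centred between the starts.

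The fold enrichment over these 8 spacers ran from 12.1 to 21.9 in library 1, with a median of 18.1, and from 6.75 to 13.7 in library 2, with a median of 8.70. H2ac8–H2bc8 reached 21.9 and 8.70, H2bc7–H2ac7 19.3 and 9.54, H2ac15–H2bc15 19.3 and 9.26, and H2bc13–H2ac13 16.9 and 8.70. The order of the pairs was not the same in both libraries. H2ac8–H2bc8 tied for the highest value in library 1 and stood level with H2bc13–H2ac13 in library 2.

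H2ac11–H2bc11, with 15.1 and 6.75, and H2ac12–H2bc12 lie side by side in block 2, and both spacers consist only of unique 100-base words. H2ac12–H2bc12 had a library 1 peak with a fold enrichment of 8.59 and no library 2 peak. Aligned with each other, the spacers of these pairs share 62 of 94 aligned bases. H2bc1–H2ac1, also unique, had no peak in either list. H2bc23–H2ac23 and H2ac24–H4bc24 had none either, but no 100-base word in their spacers is unique. The 167 bases of the former are contained in the 267 bases of the latter in reverse complement at 100% identity. Reads of low mapping quality were removed before peak calling, and the part of this repeated sequence in the missing peaks was not tested. H4bc24 is counted as H2B after its older symbol, Hist1h2br.

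**Figure D4:**
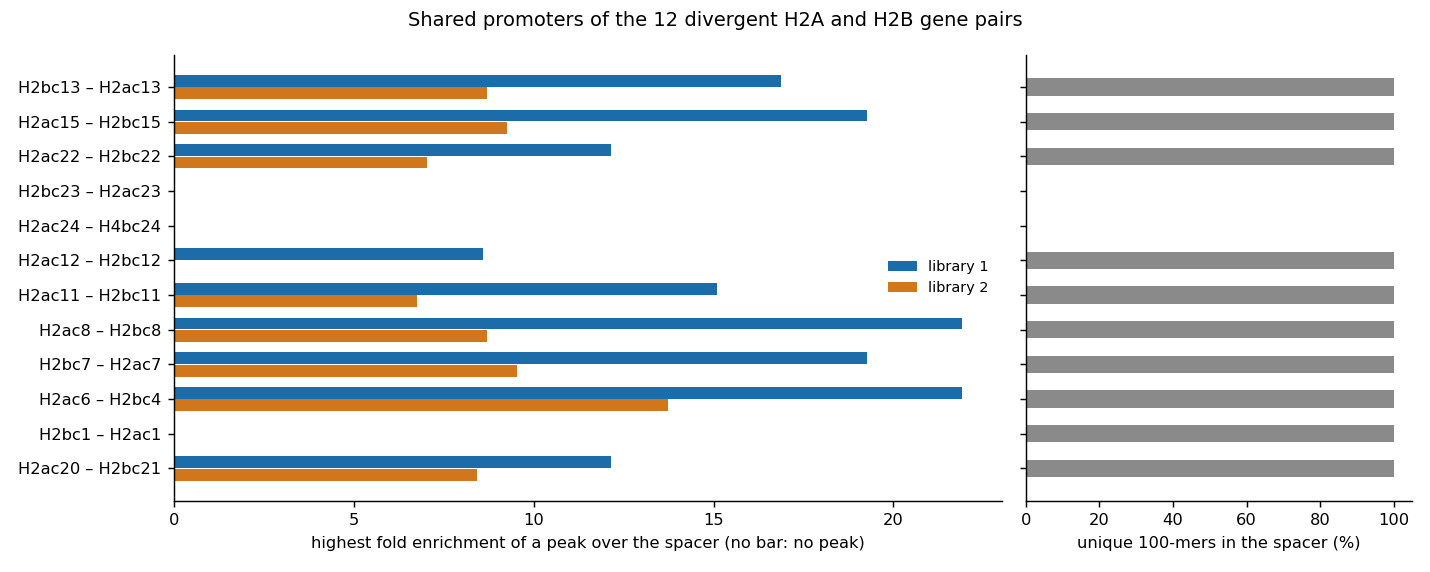
Highest fold enrichment of a peak over the spacer of each of the 12 divergent H2A and H2B pairs in library 1 (blue bars) and library 2 (orange bars; no bar, no peak), beside the share of 100-base words in the spacer that occur once in the genome (grey bars). The 8 pairs with peaks of both libraries reach 12.1 to 21.9 in library 1, and H2bc23–H2ac23 and H2ac24–H4bc24 have 0% unique words.

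All 12 spacers hold 2 to 5 CCAAT boxes, the pairs without a region included, and 4 hold an octamer, of which 2 had a region. Over the 250 bases before the start, a CCAAT box was found in all 18 H2A and all 18 H2B genes, against 35.8% of all promoters. The octamer, the element that H2B promoters are known for and that the factor OCT1 binds, was found in 8 of 18 H2B and 7 of 18 H2A genes, against 1.60% of all promoters. A divergent pair counts toward both classes here.

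Among the unpaired genes, H2aw, on chromosome 11 in cluster 3, had a region from 321 bp upstream to 445 bp downstream of the start, with a fold enrichment of 14.2 in library 1 and 7.03 in library 2. H2bc3 reached 18.4 and 8.42. H2bc6 has another annotated start beside H1f4, and the region over the start nearest its coding sequence had 6.78 in library 1 and 9.82 in library 2 (rank 7404). H2bu2, which shares cluster 3 with H2aw, had a library 1 peak of 3.30 and no library 2 peak.

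Of the 12 H3 genes 11 had a region within 1 kb of the start, and all 12 were nearest to at least 1. H3c6 had the strongest, at 18.4 in library 1 and 11.8 in library 2 (rank 245), from 1388 bp upstream to 90 bp downstream of the start. H3c11 reached 14.8 and 9.54, and H3c4 15.4 and 8.98. The weakest was H3c15 on chromosome 3, at 5.63 and 3.28, with the region 661 to 1253 bp downstream of the start, and 23% of the 100-base words in its upstream 300 bp are unique. H3c14 had no region within 1 kb and a library 2 peak of 3.96, and its upstream sequence is 17.7% unique.

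Of the 13 H4 genes 9 had a region within 1 kb of the start, and each of the 9 spanned it. H4c8 had the best-ranked region of all histone genes, with a fold enrichment of 21.03 in library 1 and 14.6 in library 2 (rank 73). It ran from 1419 bp upstream to 173 bp downstream of the start, with summits 110 bp upstream and 18 bp downstream. H4c3 reached 18.7 and 11.2, H4c14, the best of the chromosome 3 cluster, 18.7 and 9.54, and H4c4 17.5 and 7.87. H4c12 was weak in both libraries, at 5.04 and 4.24. Of the 4 without a region, H4c11 and H4f16 have fully unique upstream sequence and had a library 1 peak only, of 5.92 and 11.3. H4c17 and H4c18 lie in repeated sequence, with a library 1 peak of 5.63 at the former and no peak at the latter.

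H4 promoters differed from those of the other classes in sequence. A CCAAT box was found in 4 of 13, fewer than in any other class. An SP/KLF site (GGGCGG) was found in 10 of 13, against 44.0% of all promoters, but H1 promoters also held it in 4 of 6. A shared 13-base word, called the H4 element here and shown in capitals in the sequences that follow, occurred in the 250 bases before the start of 5 genes, H4c3, H4c4, H4c8, H4c14 and H4f16, and of no other of the 20923 protein-coding genes. Its letters were chosen after these promoters had been read, so its rarity is a description. H4 genes are known to carry an element close to the start that the factor HiNF-P, the product of Hinfp, recognises. The 150 bases before the start of H4c8, H4c3, H4c4 and H4f16 are given on the coding strand with this word, the CCAAT box and the TATA box in capitals, at chr13:23530894-23531043 (plus), chr13:23698459-23698608 (minus), chr13:23581418-23581567 (plus) and chr6:136804432-136804581 (minus). The first 3 lay under consensus regions and H4f16 did not.
H4c8: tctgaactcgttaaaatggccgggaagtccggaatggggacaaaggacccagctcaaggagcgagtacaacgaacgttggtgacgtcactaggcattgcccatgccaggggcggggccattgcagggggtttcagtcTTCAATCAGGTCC
H4c3: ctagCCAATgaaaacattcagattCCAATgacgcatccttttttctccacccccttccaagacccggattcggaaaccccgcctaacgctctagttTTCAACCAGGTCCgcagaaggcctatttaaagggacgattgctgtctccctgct
H4c4: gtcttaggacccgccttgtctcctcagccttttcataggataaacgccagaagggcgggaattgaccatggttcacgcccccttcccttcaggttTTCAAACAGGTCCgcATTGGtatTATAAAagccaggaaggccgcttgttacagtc
H4f16: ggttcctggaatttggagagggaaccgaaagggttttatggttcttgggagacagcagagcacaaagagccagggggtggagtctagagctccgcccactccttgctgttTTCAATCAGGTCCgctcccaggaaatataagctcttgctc

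Peaks lay over promoters more than over the coding sequence. At 43 genes a region spanned the start, 34 distinct regions in all, of which 9 spanned the starts of 2 histone genes. The summit lay upstream of the start in 39 of the 43 in library 1 and 36 in library 2, at a median of 87 and 95 bp upstream. These values are over genes, so a shared region counts once for each gene. A summit between 2 divergent starts is upstream of both by position. Over the 53 genes with a region within 1 kb, the 300 bp upstream of the start lay under library 1 peaks for a median of 100% and under library 2 peaks for 93.3%. The coding sequence was covered for 18.1% and 10.2%, and the 300 bp past its end for 97.3% and 62%.

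The profile over distance shows this gap. At 100 bp upstream of the start, 90.6% of the 53 genes lay under a library 1 peak and 81.1% under a library 2 peak, at 250 bp downstream 15.1% and 7.55%, and at 700 bp downstream 75.5% and 54.7%. The other 4795 genes with a region within 1 kb had 72.6% and 49.8%, 29.01% and 16.4%, and 37.5% and 21.6% at these points, so they also dipped past the start. Both sets were chosen for a region near the start, so only the shape is of interest.

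Unique sequence dipped at the same place. Of the 100-base words centred 250 bp downstream of the 53 starts 35.8% occur once in the genome, against 94.3% at 100 bp upstream. Over the 47 of these genes that are not H1, coverage of the coding sequence rose with its share of unique words (Spearman's rho 0.63 in library 1 and 0.47 in library 2, across genes that share regions). The 9 genes with at least 90% unique coding sequence, among them H4c14, H2aw and H2bc21, were covered for a median of 54.5% in library 1 and 50.8% in library 2. The 14 with under 50%, among them H3c13 and H2ac18, were covered for 4.50% and 1.27%. The part of uniqueness in the gap was not tested.

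Repeated sequence also accompanied missing regions. Of the 8 genes with under 50% unique 100-base words in the 300 bp upstream, 1 had a region within 1 kb of the start (H3c15), and of the 56 with at least 90%, 49 had one (87.5%, 76.4% to 93.8%). The 8 genes are not independent, since they include H2bc23, H2ac23, H2ac24 and H4bc24, whose spacers are copies of each other. The 7 without a region despite unique upstream sequence were H2ac1, H2ac12, H2bc1, H2bc12, H2bu2, H4c11 and H4f16.

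**Figure D5:**
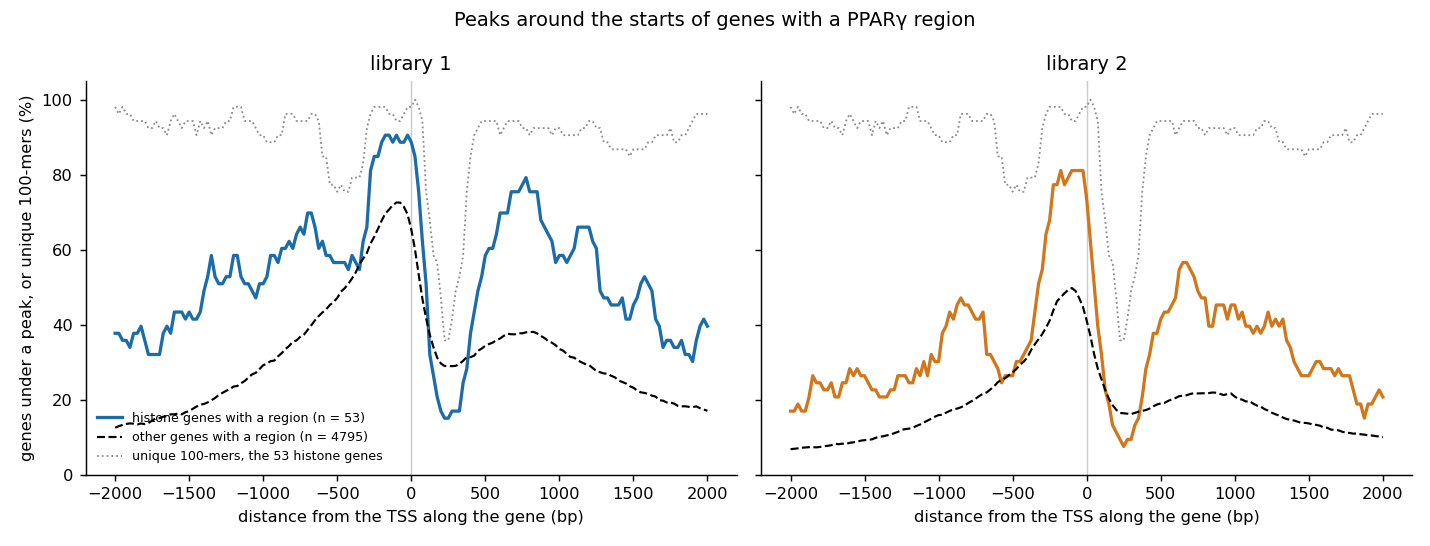
Share of genes under a peak (percent) by distance from the TSS in bp, for the 53 histone genes with a region within 1 kb (solid) and 4795 other such genes (dashed), with the share of unique 100-base words at the 53 genes (dotted), in library 1 (left) and library 2 (right). The histone curves peak just upstream of the start, fall to 15.1% and 7.55% at 250 bp downstream and rise again to 75.5% and 54.7% at 700 bp.

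None of the 88 regions held a DR1 within 100 bp of the higher summit, which allows a share of up to 4.18% (upper Wilson limit). Over all 20233 regions an exact DR1 was found in 0.119%, and in 0.114% of windows 1 kb to the left, so the exact pattern was rare everywhere. With 1 mismatch it was found in 1 of 88 (1.14%), a weak region upstream of H4c4 with a fold enrichment of 5.04 in library 1 and 3.68 in library 2, against 1.64% of all regions. A lone receptor site (AGGTCA) was found in 8 of 88 (9.09%, 4.68% to 16.9%), against 15.2%.

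Words of other macrophage factors were not in large excess in histone regions. The shares of PU.1, AP-1 and RUNX words were lower than over all regions, and that of the C/EBP word was close. The PU.1 word (GAGGAAG) was found in 4 of 88 (4.55%, 1.78% to 11.1%), against 16.2% of all regions and 12.97% of those within 1 kb of a TSS. The C/EBP word (TTGCNCAA) was found in 5.68%, against 5.09%, the AP-1 word (TGANTCA) in 5.68%, against 10.03%, and the RUNX word (TGTGGT) in 11.4%, against 19.7%. For these words and the lone receptor site the comparison is with all regions. Only 23.9% of all regions are centred within 1 kb of a TSS, against 60.2% of the histone regions. PU.1 is the factor that marks all macrophages, and C/EBP and AP-1 factors are its common partners.

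Words of histone promoters were frequent in the 88 regions. These were chosen for lying nearest to histone starts, and 82.1% of histone promoters hold a CCAAT box and 22.4% an octamer. The words therefore come with the choice of regions, and their shares are a description. Within 100 bp of the summit a CCAAT box was found in 41 of 88 histone regions (46.6%, 36.5% to 56.9%), against 26.8% of all regions and 33.7% of those within 1 kb of a TSS. A TATA box was found in 39.8%, against 14.2%, and an octamer in 10.2%, against 1.14%. In windows 1 kb to the left of the 88 summits the shares were 27.3%, 15.9% and 0%. All motifs were searched on both strands, overlaps between words were allowed, and a match is a description of letters, not a binding site. Promoters of the histone genes had a median GC content of 44.8%, against 55.6% over all genes.

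Of the replication-independent histone genes, which are expressed outside S phase as well, 7 of 15 (46.7%, 24.8% to 69.9%) had a region within 1 kb of a start, and this interval overlaps that of the 67 genes. H3f3b, one of the 2 genes that encode H3.3, had a fold enrichment of 24.3 in library 1 and 16.2 in library 2 (rank 41), above any of the 67 genes in both libraries. The centre of this region lay 3738 bp downstream of the nearest H3f3b start. H2ax (H2afx), the variant phosphorylated at DNA breaks, reached 13.3 and 8.42, H2az1 (H2afz) 9.48 and 5.91, and H3f3a, the other H3.3 gene, 7.70 and 5.35. H1f0, the H1 variant of resting cells, had no peak in either library.

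Of the factors that transcribe and process histone mRNA 9 of 27 (33.3%, 18.6% to 52.2%) had a region within 1 kb of a start, and the background of 23.2% lies within this interval. Slbp, which binds the stem-loop at the mRNA end, had 5.33 in library 1 and 4.52 in library 2, Lsm10, of the U7 particle that cuts it, 4.44 and 4.24, and Casp8ap2, of the histone locus body, 7.70 and 3.96. Npat, the S-phase coactivator of histone genes, Hinfp and Lsm11 each had a library 1 peak within 1 kb and no library 2 peak. The best-ranked within 1 kb of a start in this list were Cramp1l (10.96 and 7.31), Cpsf2 (9.48 and 7.03) and Cpsf3 (8.89 and 7.03). Yy1, a zinc finger factor, had 7.998 and 5.91 there and a stronger region of 15.7 and 10.7 farther away.

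Histone chaperones had 13 of 28 (46.4%, 29.5% to 64.2%), led by Spty2d1 (16.9 in library 1 and 9.54 in library 2) and Anp32e (11.3 and 7.59), and DNA replication genes 13 of 42 (31.0%, 19.1% to 46.0%), led by Cdt1 (9.18 and 6.24) and Pcna (10.96 and 5.91). Cytosolic ribosomal protein genes, another family of short, highly transcribed genes, had 61 of 85 (71.8%, 61.4% to 80.2%), and this interval overlaps that of the histone genes. The median fold enrichment of their best-ranked regions was 8.89 in library 1 and 5.63 in library 2, against 14.2 and 8.70 at the histone genes. The histone medians count a region once for each gene that shares it. No test was made between the lists, so no share is called particular to one.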

How the data were processed

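PPARγ HT-ChIPmentation was analysed in AMs of wild-type mice, as 2 ChIP libraries of 1 group. The 2 input libraries served the authors as controls and are not analysed here. The submitters' processing notes name MACS3, SAMtools, Bowtie2, cutadapt, CASAVA and bcl2fastq (version 2.20.0.422) with the build mm10. Per the study's methods, the authors kept properly paired, well-mapped reads that were not duplicates and called peaks with input controls at a q threshold of 0.05. The lists are deposited per library, and which input served which library is not given in the sources used here. For each peak the deposited lists hold a fold enrichment (ratio), a −log10 p-value, a −log10 q-value, a score derived from the q-value, and the summit.

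Genes came from curated RefSeq transcripts of GRCm38.p6, the assembly of mm10, and all sequences were read from that assembly. For each gene the transcript beginning nearest its coding start gave the start used for sequences, coverage and profiles. Of the 67 genes 57 carry a newer symbol that the selection names, and the others (H1f1 to H1f6, H2aw, H2bu2, H4f16 and H4bc24) were found by the older one. Words of 50 and 100 bases around the genes were counted over both strands of chromosomes 1 to 19, X and Y. The members, gene lists and motifs were chosen with earlier results of these data known. With 2 libraries and no contrast, no test was run, and shares have 95% Wilson intervals that cover counting error only. Named genes were up to 25 histone genes with a region within 1 kb of a TSS by rank, the best-ranked of each cluster and class, the first by alphabet without a region in each class, the gene with the most regions, up to 6 of each other list, and 12 genes fixed by name (Npat, Slbp, Casp8ap2, Hinfp, Lsm10, Lsm11, H2afz, H2afx, H3f3a, H3f3b, H1f0 and Hfe). Other histone genes were named after their values were seen. Alternatives were other peak thresholds, overlap rules, TSS windows, transcripts and members, and each library alone. Merging, assignment, word counts and motif searches were tested on simulated data. Python 3.11.15, pandas 2.3.3, numpy 2.4.6, scipy 1.17.1 and matplotlib 3.10.9 were used.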

Additional observations from a re-analysis of the deposited data

How the results depend on the processing

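Of 49 recomputed values 41 stayed within 1.5 times the count, or within the 95% interval of the share or median, and 8 moved. The number of histone genes with a consensus region within 1 kb of a TSS ran from 39 (summits at most 100 bp apart, background 14.7%) to 54 (a window of 3 kb, background 25.5%) where both libraries were required, and each library alone gave 52 to 59. The number nearest to a region ran from 34 to 48 with both libraries and from 52 to 58 with either alone. The number of histone regions, 88, was 58 with a fold enrichment of at least 5, 48 where summits lay within 100 bp of each other, 51 where each peak had to cover 50% of the other, and 120 to 229 for a single library. The median fold enrichment of histone regions, 8.74 and 6.19 in libraries 1 and 2, was 11.996 and 7.31 with a fold enrichment of at least 5, which removes weak peaks by construction, and 11.7 and 7.17 over the 56 regions that overlap a histone gene body. Exact DR1 stayed at 0 of 88 in whole regions, and with 1 mismatch allowed it was found in 1 of 88. Windows of 50 bp and stricter sites could only give 0 again, so they carry no information, although both are counted among the 41. Alternatives chosen after seeing the data were a region spanning the TSS itself (43 genes), members with at least 90% unique upstream sequence (49 of 56 genes) and members by newer symbols alone (46 of 57). No paired analysis was possible because the ChIP and input libraries share replicate numbers but only the ChIP libraries have peak lists, and no test was run. The lists give no counts, so weak peaks missed at lower depth cannot be told from absent ones.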
